A study of Mus musculus with 16 samples.

Results

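The 10 genes described here, Cd3e, Cd8a, Cd8b1, Cd2, Gzma, Gzmb, Gzmk, Prf1, Nkg7 and Ccl5, are commonly read as transcripts of cytotoxic T cells, and they were taken by name from the 22298 genes counted in each tumor. RNA sequencing had been performed on 16 abdominal tumors of 6-week-old, sex-matched mice of an inbred line syngeneic to the tumor, which had been injected with 500000 mouse forestomach carcinoma (MFC) cells into the peritoneal cavity. The vehicle group (8 tumors) was given PBS and the IL-33 treatment group (8 tumors) was given IL-33, an alarmin cytokine, at 20 μg/kg into the peritoneal cavity every 2 days. MFC is an established murine gastric cancer line, labelled wild type. Only tumors with RNA of sufficient quality were sequenced, and the labels do not say whether some tumors shared a mouse. The study's methods give fewer mice per group for this model than the 8 tumors sequenced per group, and p values would be too small if tumors shared an animal. All 10 genes had enough reads to be tested. The comparison asks whether intraperitoneal IL-33 changed the level of these transcripts in the tumors.

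CD8+ T cells recognize peptides on MHC class I through a T cell receptor that signals through the CD3 chains, with CD8 as coreceptor. CD8 is a dimer of an alpha and a beta chain, and conventional cytotoxic T cells carry both, whereas one subset of dendritic cells carries the alpha chain without the beta chain. Killing rests on granules. Perforin opens the membrane of the target cell, and granzymes enter and cleave proteins inside it. Natural killer (NK) cells use the same granules but lack the CD3 complex on their surface, so Gzma, Gzmb, Prf1, Nkg7 and Ccl5 do not tell the types apart, while Cd3e and Cd8b1 lean towards T cells.

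The sequences before the transcription starts of 6 of the genes are printed here because over 12 of the 16 tumors, chosen after seeing the data, these genes fell into 2 sets by their covariation, Gzma, Gzmb and Prf1 in the first and Cd3e, Cd8a and Gzmk, together with Cd8b1, in the second. Each line holds the 150 bases before the RefSeq start on GRCm38.p6, 5′ to 3′ on the strand of the gene. Capitals mark 4 motifs on either strand, TGTGGT (RUNX), AGGAAG (ETS), GGTGTG (T-box) and TGACGT (CRE), none of which overlapped another within these lines. A match on the opposite strand appears as its reverse complement.
Gzma, chr13:113100982-113101131, minus strand: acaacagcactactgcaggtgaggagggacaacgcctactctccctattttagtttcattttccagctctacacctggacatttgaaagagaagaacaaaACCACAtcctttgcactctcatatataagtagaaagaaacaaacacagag
Gzmb, chr14:56262335-56262484, minus strand: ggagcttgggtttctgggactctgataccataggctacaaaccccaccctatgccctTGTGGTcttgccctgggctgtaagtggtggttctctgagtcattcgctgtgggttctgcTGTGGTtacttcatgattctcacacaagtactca
Prf1, chr10:61297686-61297835, plus strand: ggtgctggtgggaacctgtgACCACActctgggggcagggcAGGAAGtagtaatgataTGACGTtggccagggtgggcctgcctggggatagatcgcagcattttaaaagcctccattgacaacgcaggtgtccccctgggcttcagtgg
Cd3e, chr9:45009612-45009761, minus strand: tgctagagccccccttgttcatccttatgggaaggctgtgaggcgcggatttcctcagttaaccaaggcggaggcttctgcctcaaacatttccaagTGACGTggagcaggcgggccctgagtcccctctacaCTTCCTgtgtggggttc
Cd8a, chr6:71373277-71373426, plus strand: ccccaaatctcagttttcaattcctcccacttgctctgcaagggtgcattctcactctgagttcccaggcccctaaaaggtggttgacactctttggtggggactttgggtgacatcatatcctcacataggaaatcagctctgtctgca
Gzmk, chr13:113180966-113181115, minus strand: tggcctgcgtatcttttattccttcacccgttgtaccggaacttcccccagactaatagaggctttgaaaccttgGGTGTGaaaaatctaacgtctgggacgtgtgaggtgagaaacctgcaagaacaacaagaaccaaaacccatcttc
A RUNX motif match stood in all 3 windows of the first set, and Gzmb held 2 of them. None of the 3 printed windows of the second set held the RUNX motif. Over all 32851 windows of this length, 8.40% held the RUNX motif, 19.7% the ETS motif, 10.3% the T-box motif and 5.15% the CRE motif. The Nkg7 window held the RUNX motif, the ETS motif and the T-box motif. The Cd8a window held none of the 4, which says only that these letters are not in this window. Windows for Cd8b1, Ccl5 and Cd2 were not used here. These matches are descriptions of sequence, and occupancy was not measured.

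The total count per tumor lay between 14139268 and 24290794 for vehicle and between 16569613 and 24288893 for IL-33 tumors. One library stood apart: the summed level of 10 uterus and oviduct markers was 1656 CPM (the count scaled to the total count of the library) in IL-33 replicate 7 and no more than 22.9 CPM elsewhere. Group comparisons of the 10 genes and of the gene lists are therefore also given without it. In bulk tumors, fewer cells of a type and less RNA per cell cannot be told apart.

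The 10 transcripts did not pass the test for a difference between the vehicle and the IL-33 treatment groups, and they varied far more between tumors than between groups. By edgeR's quasi-likelihood test with Benjamini-Hochberg adjustment over 16817 genes, adjusted p values of the 10 genes lay between 0.658 and 0.970, and unadjusted p values between 0.188 and 0.835. No gene of the whole table passed an adjusted p of 0.05 (0% called), with edgeR, DESeq2 or limma. At an unadjusted p of 0.05, edgeR called 0 of the 10 genes, against 9.99% of all genes as higher and 1.17% as lower in the IL-33 treatment group, and DESeq2 called 691 genes in all and 0 of the 10. With limma voom and sample weights, 966 of 16817 genes were called, among them 1 of the 10, Ccl5 (log2 fold change 1.04, adjusted p = 0.766). With IL-33 replicate 7 left out, edgeR again called 0 of the 10, against 1.83% of all genes higher and 2.29% lower. The fitted log2 fold change (IL-33 minus vehicle) was positive for 8 genes and negative for 2, with a median of 0.17 over the 10 beside 0.06 over all genes. These medians were 0.35 and -0.01 without IL-33 replicate 7. The median over the 10 genes turned on single tumors: it was 0.72 without vehicle replicate 7 (0.05 over all genes), and, with IL-33 replicate 3, 4 or 8 left out, -0.02, -0.05 and 0.01.

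Cd3e encodes the epsilon chain of CD3. Its level was 0.566 CPM in the lowest, 1.86 CPM in the median and 10.7 CPM in the highest vehicle tumor, and 0.541, 1.83 and 9.53 CPM among IL-33 tumors. The ranges overlapped almost fully, and the log2 fold change was 0.13 (SE 0.62, adjusted p = 0.970 with edgeR). Cd8a, the alpha chain of CD8, lay at 1.54, 4.00 and 18.1 CPM in the vehicle group and at 1.19, 3.40 and 18.2 CPM among IL-33 tumors. Its log2 fold change was 0.16 (SE 0.61, adjusted p = 0.962 with edgeR).

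Cd8b1, the beta chain, was lower. It ranged from 0.0707 CPM, which was 1 read in vehicle replicate 4, through a median of 0.716 to 4.17 CPM for vehicle, and from 0.285 through 1.29 to 5.08 CPM after IL-33. IL-33 replicates 4 and 8 were above all vehicle tumors. The fitted log2 fold change was 0.58 (SE 0.72), and its 95% interval of -0.95 to 2.10 was the widest of the 10 genes (edgeR, adjusted p = 0.834). Cd2, an adhesion receptor of T and NK cells, ran from 0.864 through 1.51 to 9.03 CPM among vehicle tumors and from 0.324 through 2.44 to 8.36 CPM among IL-33 tumors, with a log2 fold change of 0.31 (SE 0.58, adjusted p = 0.908 with edgeR).

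Gzma and Gzmb had the highest levels of the 10 genes. Gzmb, the granzyme that cleaves after aspartate, ranged from 9.05 through 31.0 to 105 CPM among vehicle tumors and from 7.52 through 29.7 to 132 CPM among IL-33 tumors. Here too IL-33 replicates 4 and 8 exceeded all vehicle tumors. The fitted log2 fold change was 0.40 (SE 0.55, adjusted p = 0.856 with edgeR). Gzma, a tryptase, ranged from 10.8 through 25.1 to 46.6 CPM among vehicle tumors and from 5.07 through 26.3 to 66.6 CPM among IL-33 tumors. Of the treated tumors, 3 lay above every vehicle tumor, and IL-33 replicate 7 lay below every other tumor. Its fitted log2 fold change was 0.17 (SE 0.44, adjusted p = 0.938 with edgeR), whereas the difference of the mean log2(CPM + 0.5) was -0.04, so its direction depended on the scale.

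Prf1 encodes perforin. It ranged from 4.24 through 11.9 to 35.3 CPM among vehicle tumors and from 3.46 through 10.3 to 31.0 CPM among IL-33 tumors. The highest value of all 16 tumors was that of vehicle replicate 6. The log2 fold change was -0.16 (SE 0.44, adjusted p = 0.943 with edgeR) and 0.13 without that tumor. Gzmk, a granzyme found in memory-like CD8+ T cells, was the rarest member, with 3 to 52 reads in a tumor. It ranged from 0.282 through 0.589 to 2.97 CPM among vehicle tumors and from 0.162 through 0.491 to 1.93 CPM among IL-33 tumors, with a log2 fold change of -0.32 (SE 0.60, adjusted p = 0.907 with edgeR).

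Nkg7, a protein of the granule membrane needed for release, ranged from 3.45 through 5.31 to 26.6 CPM among vehicle tumors and from 1.89 through 4.81 to 21.2 CPM among IL-33 tumors (log2 fold change 0.13, SE 0.52, adjusted p = 0.963 with edgeR). Ccl5, a chemokine that attracts leukocytes, had the largest fitted change of the 10. It ranged from 2.84 through 4.53 to 19.9 CPM among vehicle tumors and from 3.13 through 9.27 to 20.7 CPM among IL-33 tumors. IL-33 replicates 4 and 8 were above every vehicle tumor, and 4 of 8 treated tumors were above the vehicle mean. The log2 fold change was 0.64 (SE 0.47, unadjusted p = 0.188, adjusted p = 0.658 with edgeR), and the interval of -0.35 to 1.63 held 0.

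The call on Ccl5 turned on vehicle replicate 7, since the next highest vehicle tumor was at 6.25 CPM. Without that tumor the log2 fold change was 1.08 (unadjusted p = 0.0222, adjusted p = 0.437 with edgeR). Leaving out IL-33 replicate 7 instead, it was 0.81 (unadjusted p = 0.0812, adjusted p = 0.964 with edgeR). Two-sided exact permutation tests of log2(CPM + 0.5) over all assignments of the tumors gave p values between 0.186 for Ccl5 and 0.941 for Gzma. Without IL-33 replicate 7 the same exact permutation test gave p values between 0.0850 for Ccl5 and 0.964 for Gzmk. The intervals of all 10 genes held 0 in both fits, and over 16 tumors the upper ends lay between 0.76 and 2.10, so changes of that size could not be told from none at this spread.

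**Figure D1:**
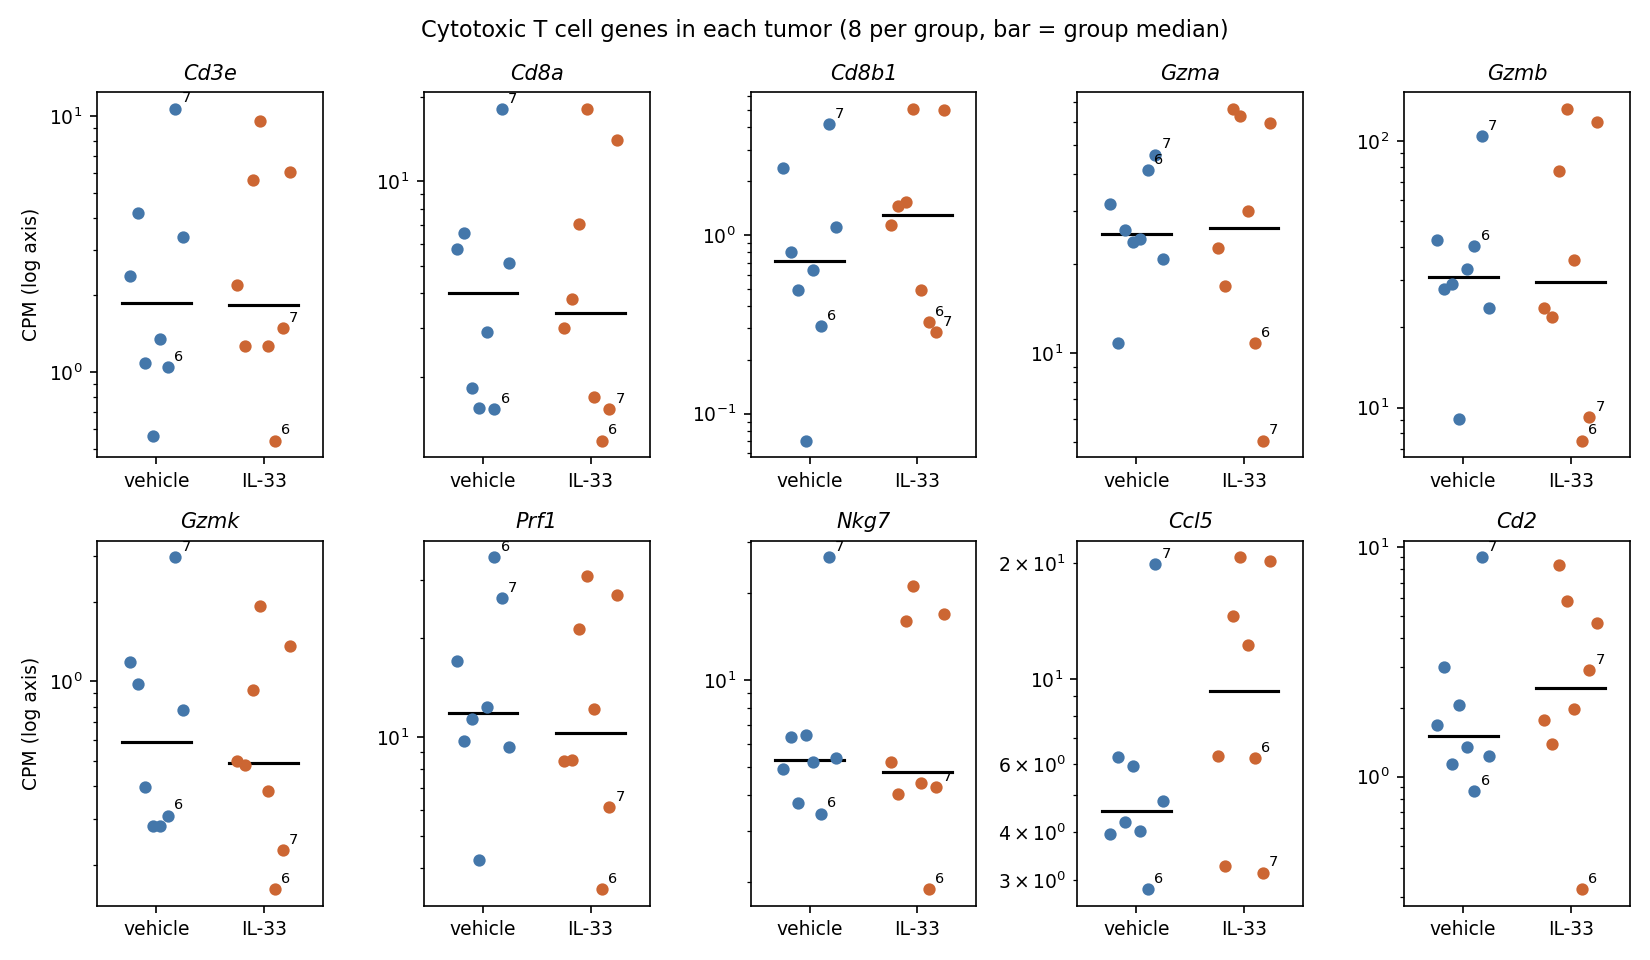
Level of each of the 10 genes in CPM (log axis, its own range in each panel) in 8 vehicle and 8 IL-33 tumors, with each point a tumor, the bar the group median, and replicates 6 and 7 numbered. In each panel the groups overlap, and vehicle replicate 7 is far above the other vehicle tumors for most genes, at 26.6 CPM for Nkg7 and 19.9 CPM for Ccl5.

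**Figure D2:**
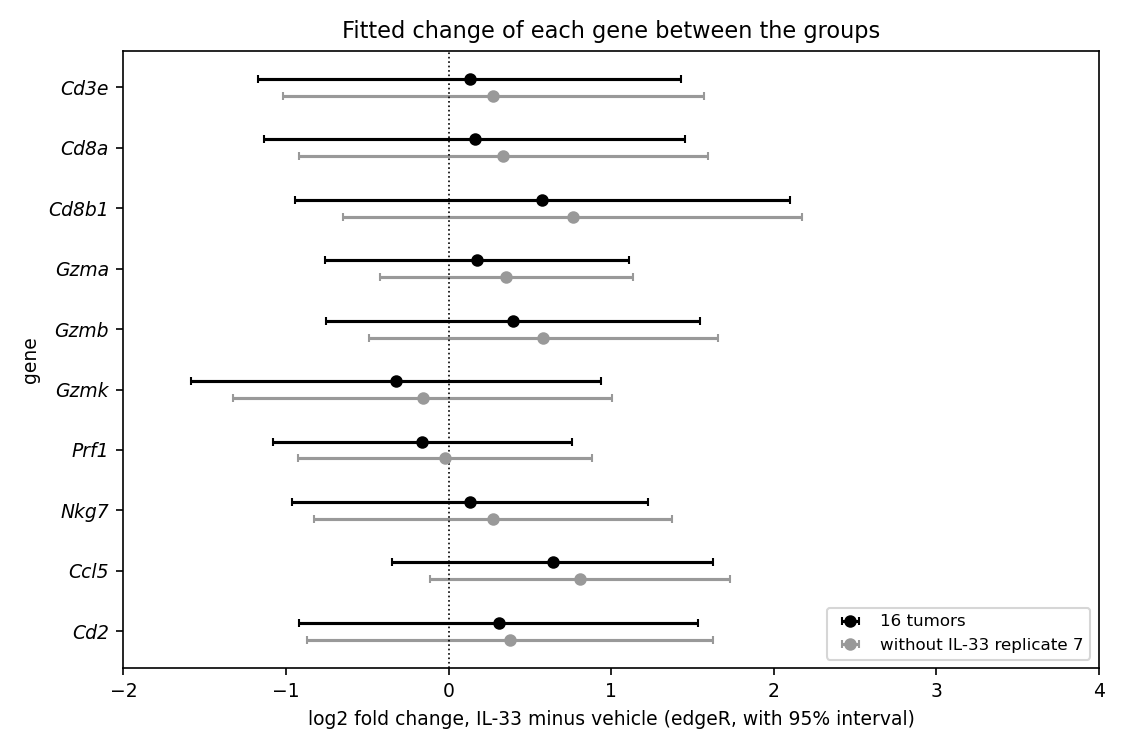
Fitted log2 fold change (IL-33 minus vehicle) of each gene with its 95% interval from edgeR, over 16 tumors (black) and without IL-33 replicate 7 (grey). Each interval holds 0, and the estimates over 16 tumors run from -0.32 for Gzmk to 0.64 for Ccl5.

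Set side by side per kilobase of annotated exon, the order of the median level was Gzma (25.0 CPM per kb), Gzmb (21.6), Ccl5 (6.33), Nkg7 (5.72), Prf1 (4.55), Cd2 (1.08), Cd8a (0.935), Cd8b1 (0.643), Cd3e (0.449) and Gzmk (0.354 CPM per kb). Gzmb stood above Ccl5 in 15 of 16 tumors, Prf1 above Cd2 in 16 and Cd8a above Cd8b1 in 15. The order was loose elsewhere. Gzma stood above Gzmb in 11 tumors, Nkg7 above Prf1 in 13, Cd3e above Gzmk in 12, Ccl5 above Nkg7 in 5, Cd2 above Cd8a in 8 and Cd8b1 above Cd3e in 10, so these neighbours kept no constant order and their levels overlapped. The exon length counts every annotated exon of a gene, and the levels per kilobase depend on it.

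The tumors differed most from each other by a joint rise of the 10 genes in 4 tumors. Vehicle replicate 7 and IL-33 replicates 3, 4 and 8 had a mean log2(CPM + 0.5) over the 10 genes of 3.50 to 4.11, the other 12 tumors of 1.22 to 2.67. The gap of 0.82 between them was wider than any other gap between neighbouring tumors, of which the next was 0.34. These 4 tumors were the 4 highest for 7 of the 10 genes and lay above the median of all 16 tumors for each of the 10. They come from both groups, 1 from vehicle and 3 from IL-33. The lowest tumor was IL-33 replicate 6, with the lowest value of 7 genes. The highest level was 7.31 times the lowest for Ccl5, 10.2 times for Prf1, 17.6 times for Gzmb and 19.8 times for Cd3e.

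Markers of T cells, NK cells and blood cells in general were also high in the 4 tumors. The summed level of Cd3d, Cd3e and Cd3g was 18.4 to 30.5 CPM in them and 1.46 to 10.1 CPM in the other 12. The NK cell markers without Klra4 summed to 40.1 to 50.5 CPM against 5.23 to 13.9 CPM. Klrk1 alone was 25.3 of 45.3 CPM in vehicle replicate 7 and 27.1 of 50.4 CPM in IL-33 replicate 4. Ncr1 was at 6.12 and 7.13 CPM in these 2 tumors. With Klra4 included, the sums were 109 to 110 CPM against 18.7 to 90.4 CPM, a narrower gap. Klra4 itself was at 63.9 CPM in vehicle replicate 7 and reached 76.5 CPM in another vehicle tumor. Ptprc (CD45), the marker of blood cells in general, lay at 161 to 306 CPM against 11.6 to 144 CPM. These tumors were picked by their level of the 10 genes, so the values are a description. The part of each cell type in the joint rise was not tested.

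**Figure D3:**
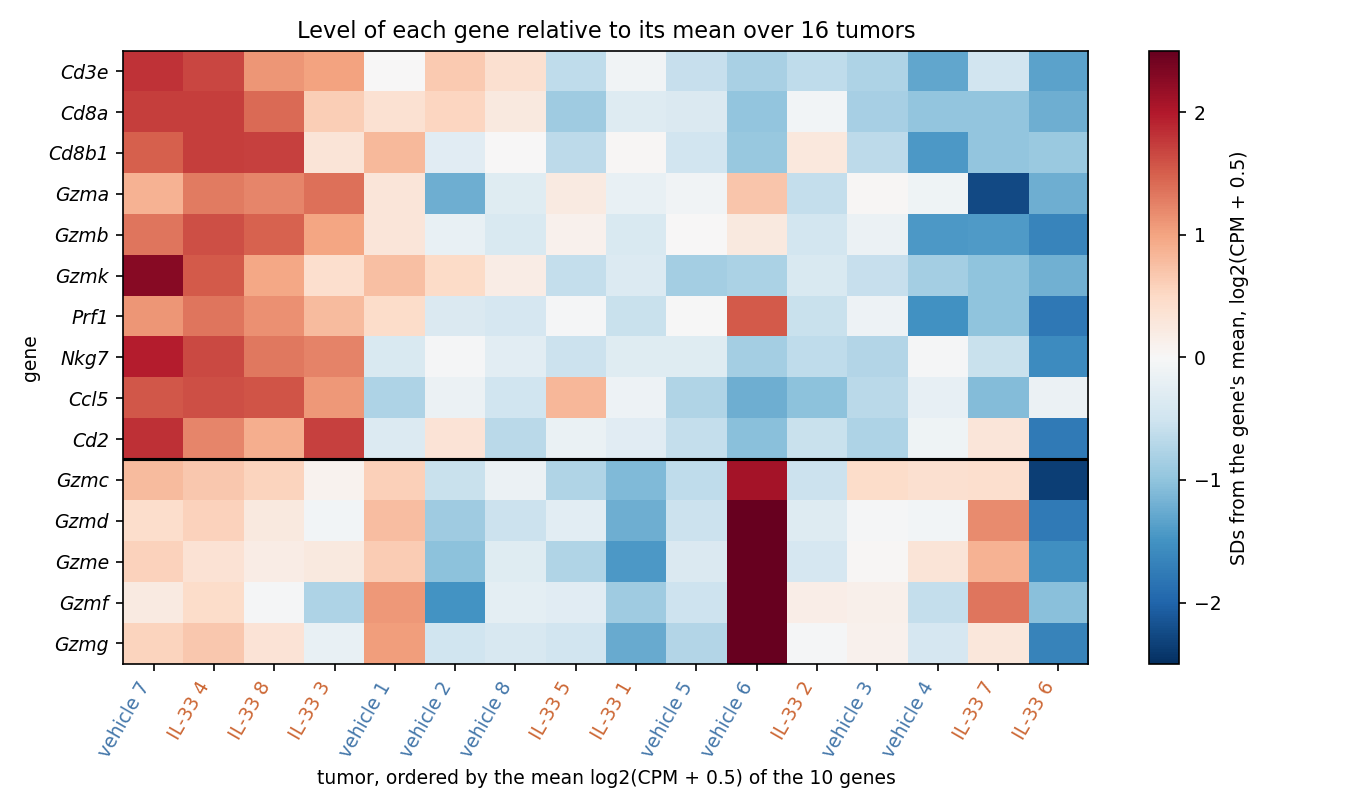
Level of the 10 genes (above the line) and of Gzmc to Gzmg (below it) in each tumor, as SDs from the mean of the gene over 16 tumors on the log2(CPM + 0.5) scale, with the colour scale ending at 2.5 SDs and tumors ordered by the mean of the 10 genes. The 4 leftmost tumors are above the median for each of the 10 genes but not for all of Gzmc to Gzmg, and vehicle replicate 6 is high for Prf1 and for Gzmc to Gzmg while low for Cd3e, Cd8a and Ccl5.

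Covariation was measured as Pearson r of log2(CPM + 0.5) between tumors for the 45 pairs of genes. Over all 16 tumors r had a median of 0.77 and ran from 0.46 to 0.96, and 43 pairs passed a permutation test with Benjamini-Hochberg adjustment over the 45 pairs at 0.05. This median fell when the 4 high tumors were left out. Over the other 12 tumors, an alternative chosen after seeing the data, the median r was 0.29, the range -0.31 to 0.92, and 7 pairs passed. The 4 tumors had been set apart by the mean of these same 10 genes, and such a cut by itself tends to lower r between them. How much of the fall came from the cut was not tested. Spearman rho gave a median of 0.63 over 16 tumors with 36 pairs past the threshold, and of 0.27 over 12 tumors with 7 pairs. CPM values share the library total of a tumor, which can tie genes together, and the total count itself went with the mean of the 10 genes at r = 0.23 (permutation p = 0.390; rho = 0.19, permutation p = 0.471; r = 0.09 without the 2 tumors farthest from the median). The TMM factor of the library went with that mean at r = 0.35 (permutation p = 0.191; rho = 0.54, permutation p = 0.0348; r = 0.78 without the 2 farthest tumors), and its part in the covariation was not tested, but with CPM scaled by that factor the median r over 16 tumors was 0.73.

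What remained among the 12 tumors was structure within 2 sets, named after their values were seen. The p values over the 12 tumors describe only the tumors left by that cut. In the T cell set of Cd3e, Cd8a, Cd8b1 and Gzmk, r lay between 0.65 and 0.92 over the 12 tumors, and 5 of 6 pairs passed. Cd8a and Gzmk were the closest, with r = 0.92 (permutation adjusted p = 0.0009), rho = 0.91 (permutation adjusted p = 0.00225), and r = 0.86 without the 2 tumors farthest from the median of Cd8a. Cd3e and Cd8a followed with r = 0.87 (permutation adjusted p = 0.00255), rho = 0.80 (permutation adjusted p = 0.0281), and r = 0.76 without the 2 farthest tumors. Cd8a and Cd8b1 gave r = 0.82 (permutation adjusted p = 0.0109), rho = 0.85 (permutation adjusted p = 0.0156), and r = 0.87 without the 2 farthest.

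In the granule set, Gzmb and Prf1 had r = 0.89 over the 12 tumors (permutation adjusted p = 0.0009), rho = 0.97 (permutation adjusted p = 0.00045), and r = 0.77 without the 2 tumors farthest from the median of Gzmb. Gzma went with Gzmb at r = 0.69 (permutation adjusted p = 0.0665, rho = 0.78 with adjusted p = 0.0283) and with Prf1 at r = 0.65 (permutation adjusted p = 0.113, rho = 0.76 with adjusted p = 0.0399). Between the sets, r lay between -0.10 and 0.55 over the 12 tumors, with a median of 0.30, and 0 of 12 pairs passed at the adjusted threshold. The remaining pair that passed was Nkg7 with Cd2, at r = 0.80 (permutation adjusted p = 0.0224), but rho was 0.63 (permutation adjusted p = 0.148) and r fell to 0.53 without the 2 tumors farthest from the median of Nkg7. Ccl5 stood alone, with r between -0.31 and 0.13 to each of the other 9 genes over the 12 tumors.

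Within each group of 8 tumors the T cell set held together, with r between 0.87 and 0.98 among vehicle tumors and between 0.87 and 0.99 after IL-33. In the granule set, r lay between 0.54 and 0.86 among vehicle tumors, where none of its 3 pairs passed the adjusted exact permutation test, and between 0.90 and 0.99 after IL-33. Between the sets, the median r was 0.37 among vehicle tumors and 0.90 after IL-33, a difference that was not tested. The vehicle value turned on vehicle replicate 6 and was 0.77 in the 7 vehicle tumors without it, above the 0.57 within the granule set there. After IL-33 the median within the granule set was 0.95, so the 2 sets were separate over the 12 lower tumors and not in every group. Of the 45 pairs, 9 passed the exact permutation test adjusted over the pairs in the vehicle group and 40 in the IL-33 treatment group. Each group included high tumors, vehicle replicate 7 in the first and IL-33 replicates 3, 4 and 8 in the second.

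**Figure D4:**
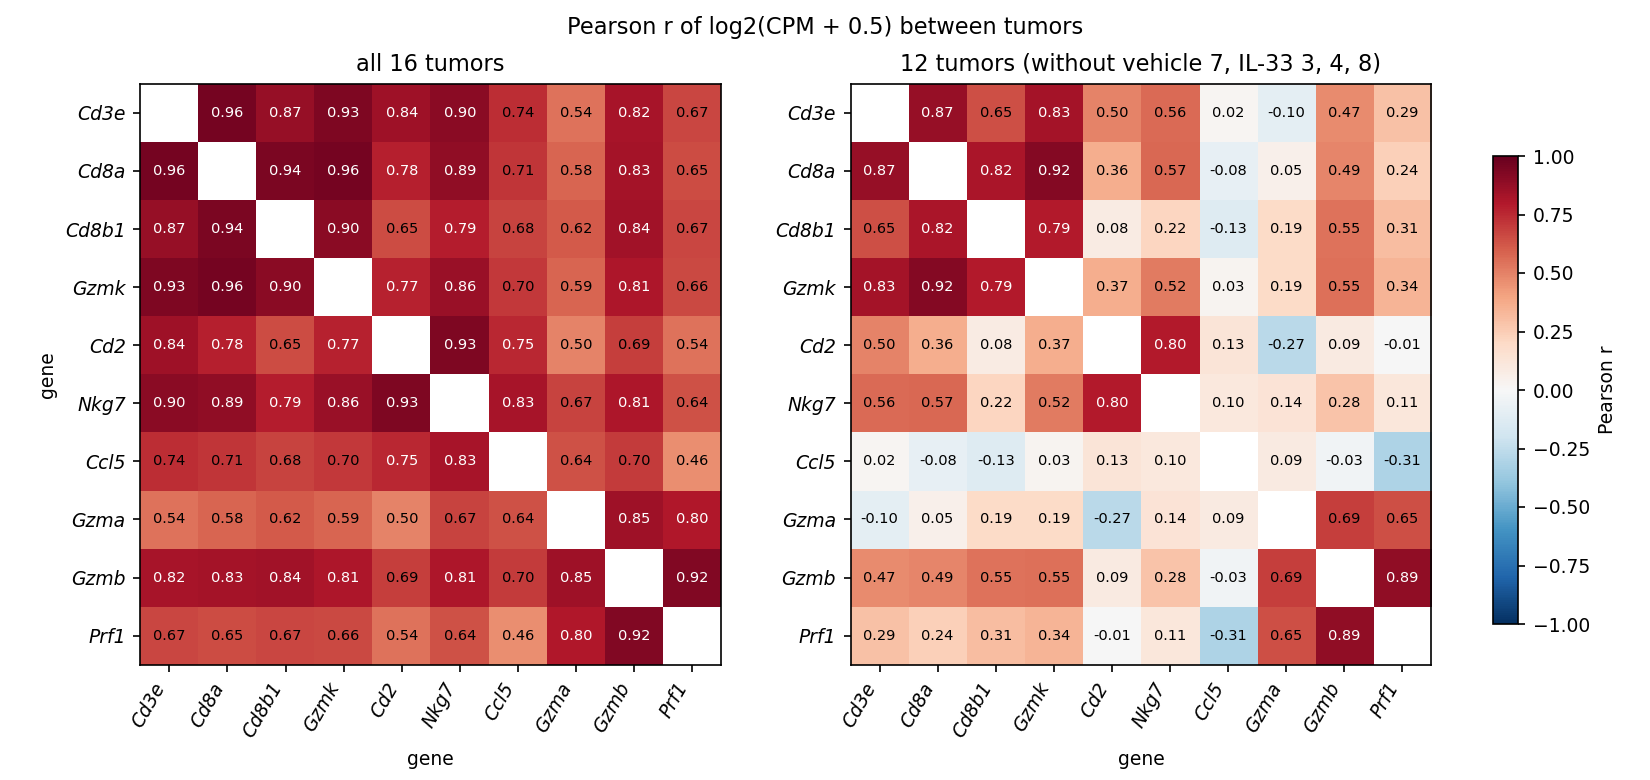
Pearson r of log2(CPM + 0.5) between tumors for each pair of genes, over all 16 tumors (left) and over the 12 tumors other than vehicle replicate 7 and IL-33 replicates 3, 4 and 8 (right). On the right, high values are left in the block of Cd3e, Cd8a, Cd8b1 and Gzmk, in that of Gzma, Gzmb and Prf1, and between Cd2 and Nkg7.

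Vehicle replicate 6 parted the granule genes from the T cell genes. It ranked 1st of 16 for Prf1 (35.3 CPM), 5th for Gzma (41.3 CPM) and 6th for Gzmb (40.3 CPM). It ranked 14th for Cd3e (1.05 CPM), Cd8a (1.54 CPM) and Cd8b1 (0.309 CPM), 15th for Nkg7 and Cd2, and last for Ccl5 (2.84 CPM). Its NK cell markers without Klra4 summed to 7.46 CPM, within the range of the 12 lower tumors. Among the other granzymes, Gzmc, Gzmd, Gzme, Gzmf and Gzmg all had their highest level there, at 24.4, 73.2, 30.7, 81.9 and 69.2 CPM. Their sum was 280 CPM in this tumor, and 9.46 to 82.3 CPM with a median of 32.7 CPM in the other 15. These 5 genes lie beside Gzmb on chromosome 14 and are close copies of one another, so reads may have been split between them and each is uncertain as a single gene. They were singled out from a longer list after their values were seen.

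The log2 fold changes of these 5 granzymes between the groups lay between -0.86 and -1.38, and Gzmg passed the unadjusted threshold (log2 fold change -1.38, SE 0.61, adjusted p = 0.423 with edgeR). Without vehicle replicate 6 they lay between -0.04 and -0.59, and Gzmg had -0.37 (adjusted p = 0.820 with edgeR). Of the 10 cytotoxic genes, Prf1 went with the mean of Gzmc to Gzmg at r = 0.64 over 16 tumors (permutation p adjusted over 50 relations 0.0144, rho = 0.56 with adjusted p = 0.0538). That relation varied with the tumors included. It had r = 0.36 without the 2 tumors farthest from the median of Prf1, and 0.54 without vehicle replicate 6. Over the 12 lower tumors r was 0.69 (permutation adjusted p = 0.199, rho = 0.43 with adjusted p = 0.446), and without IL-33 replicate 7 it was 0.75. Against 18 genes of the T cell receptor and its signalling, Prf1 had r = 0.63 over 16 tumors (permutation adjusted p = 0.0175) and 0.86 without vehicle replicate 6. Cd3e and Cd2 were nearest to that list over the 12 lower tumors, at r = 0.80 (permutation adjusted p = 0.0497) and 0.85 (permutation adjusted p = 0.0320). By rank, Cd3e kept its call (rho = 0.87, permutation adjusted p = 0.0295) and Cd2 did not (rho = 0.67, permutation adjusted p = 0.204).

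**Figure D5:**
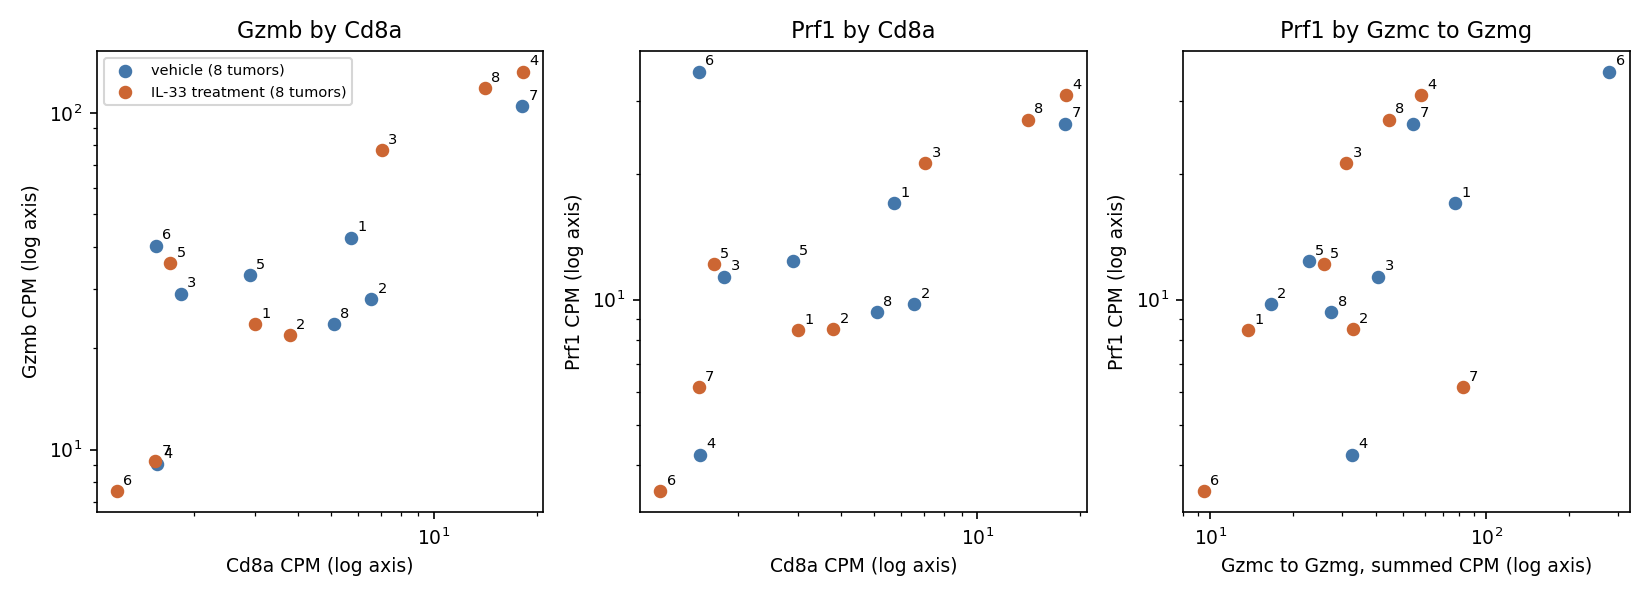
Gzmb against Cd8a, Prf1 against Cd8a, and Prf1 against the summed level of Gzmc to Gzmg, all in CPM on log axes, with each numbered point a tumor. Vehicle replicate 6 has 35.3 CPM of Prf1 at 1.54 CPM of Cd8a and 280 CPM of Gzmc to Gzmg, while IL-33 replicate 7 has 6.15 CPM of Prf1 at 82.3 CPM of Gzmc to Gzmg.

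Against the other cell lists, relations over all 16 tumors included the 4 high tumors. The mean of the NK cell markers went with the 10 genes at r between 0.67 and 0.93, all 10 past the adjusted permutation threshold, but with r between -0.15 and 0.65 over the 12 lower tumors, where none passed. The macrophage markers went with Cd2 at r = 0.81 and with Gzma at r = 0.27. The epithelial markers ran against Gzma at r = -0.61 (permutation adjusted p = 0.0402), but rho was -0.16 (permutation adjusted p = 0.601), r was -0.14 without the 2 tumors farthest from the median of Gzma and -0.14 without IL-33 replicate 7, so this relation rested on that tumor. The other 9 genes had r between -0.43 and 0.04 with the epithelial list. By rank, Cd8b1 passed over 16 tumors (rho = -0.57, permutation adjusted p = 0.0483) but not over the 12 lower tumors (rho = -0.76, permutation adjusted p = 0.103), and its r was -0.36 (permutation adjusted p = 0.271). In all, 50 relations of a gene with a list were computed. Outside IL-33 replicate 7, Krt18, Krt7, Epcam, Cdh1, Cldn7 and Muc1 of the epithelial list lay at no more than 3.01 CPM. Krt8 and Krt19, looked at after their values were seen, had vehicle means of 543 and 184 CPM. Their r with the mean of the 10 genes was -0.72 and -0.62 over 16 tumors, and -0.20 and -0.64 over the 12 lower tumors. These r were not tested.

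Ratios between the genes ask whether the make-up of the cytotoxic transcripts differed apart from their total. Both levels in a ratio were raised by 0.5 CPM, which pulls the log2 ratio towards 0 where a gene was low. Cd8b1 was as low as 0.0707 CPM, in vehicle replicate 4, so its ratios are smaller than those of the plain levels. None of 12 log2 ratios differed between the groups by the two-sided exact permutation test, for which the smallest p was 0.126 and the smallest adjusted p 0.819. The log2 ratio of Cd8a to Cd8b1 was 1.67 ± 0.44 (SD, n = 8) for vehicle and 1.36 ± 0.32 (SD, n = 8) for IL-33 tumors, and 2 of 8 treated tumors lay above the vehicle mean (exact permutation p = 0.126). That of Cd8a to Cd4 was 1.51 ± 0.62 and 1.01 ± 0.77 (exact permutation p = 0.181, n = 8 each), and its lowest value was in IL-33 replicate 7. For Gzmb to Cd3e, the log2 ratio was 3.58 ± 0.79 and 3.50 ± 0.67 (exact permutation p = 0.820, n = 8 each). The log2 ratio of Prf1 to Cd3e was 2.34 ± 1.14 and 2.02 ± 0.40 (exact permutation p = 0.496, n = 8 each), with vehicle replicate 6 the highest at 4.53. The log2 ratio of Nkg7 to Cd3e spread by an SD of 0.15 in the IL-33 treatment group and 0.68 in the vehicle group. Ccl5 to Cd3e was 1.13 ± 0.71 and 1.61 ± 0.75 (exact permutation p = 0.205, n = 8 each). The smallest exact permutation p was 0.144 without IL-33 replicate 7.

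The genes around the 10 in their pathways were taken from fixed lists and, like them, gave no call at the adjusted threshold. For the unadjusted counts of each list below, the shares over all genes were 9.99% higher and 1.17% lower over 16 tumors. Without IL-33 replicate 7 the shares were 1.83% and 2.29%. Of 18 genes of the T cell receptor and its signalling, 0 passed an unadjusted p of 0.05 in either direction, and the median log2 fold change was 0.37, without IL-33 replicate 7 again 0 and 0.41. The smallest p values were those of Cd28, a costimulatory receptor (median 0.798 CPM in vehicle and 1.87 CPM in IL-33 tumors, log2 fold change 0.89, adjusted p = 0.607 with edgeR), and Cd247, the zeta chain (0.71, adjusted p = 0.641). The summed level of this list was 33.4 to 197 CPM in the vehicle group and 13.4 to 179 CPM among IL-33 tumors, and 139 CPM of the latter maximum was Thy1 in IL-33 replicate 7.

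Of 21 tested genes of other granzymes and granules, 1 passed as higher and 1 as lower (edgeR, unadjusted). Rab27a, a GTPase that docks secretory granules, had medians of 4.09 CPM in vehicle and 7.48 CPM in IL-33 tumors (log2 fold change 0.96, SE 0.32, adjusted p = 0.418 with edgeR) and 24.4 CPM in IL-33 replicate 7, without which its log2 fold change was 0.68. The gene that passed as lower was Gzmg, described above, joined by Gzme without IL-33 replicate 7 (-1.35). Of 11 tested transcription factors, 1 passed: Id2, a repressor needed for innate and cytotoxic lymphocytes, rose from a median of 27.7 to 41.8 CPM at the unadjusted threshold (log2 fold change 0.59, SE 0.24, adjusted p = 0.418 with edgeR), and Stat4, which relays interleukin-12, had 0.89 (adjusted p = 0.560). Without IL-33 replicate 7, Id2 (0.59) and Runx3, a factor of the cytotoxic T cell program (0.55), passed the unadjusted threshold, in a fit whose smallest adjusted p over all genes was 0.964 (edgeR). Among 6 inhibitors of granzymes, Serpinb6b passed (log2 fold change 0.60, adjusted p = 0.418 with edgeR), but not without IL-33 replicate 7 (0.45). Serpinb6a had a log2 fold change of -0.35. Of 9 ligands and receptors of the 10 genes, none passed. Cd48, the ligand of CD2, had medians of 10.5 and 13.0 CPM. The smallest p were those of Ccr3, a receptor of CCL5 with means of 0.823 and 0.418 CPM, and of Tap1, which carries peptides to MHC class I (log2 fold change 0.39). Without IL-33 replicate 7, Tap1 was the 1 gene of the list to pass unadjusted, at 0.54.

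Lists of cells that share these transcripts gave few calls, all unadjusted. Of all genes, 9.99% passed as higher over 16 tumors and 1.83% without IL-33 replicate 7. Of 11 tested NK cell markers, Khdc1a and Klra8 passed as higher, and the median log2 fold change was 0.80. Khdc1a was at 2.28 CPM in IL-33 replicate 7 and at no more than 0.108 CPM elsewhere. Klra8 was at no more than 0.324 CPM in any tumor. Without IL-33 replicate 7 Klra8 and Klrb1c passed among 10 tested markers, with a median of 0.62. Ncr1, the receptor that defines NK cells, had medians of 1.42 and 2.49 CPM (log2 fold change 0.80, adjusted p = 0.666 with edgeR). Klra4 made up most of the summed NK list in each vehicle tumor, at 32.1 to 76.5 CPM in vehicle tumors and 6.21 CPM in IL-33 replicate 7. Of 6 markers of CD4 and regulatory T cells, Cd40lg passed at no more than 0.228 CPM (median of the list 0.47, and 0.32 with no call among 5 tested without IL-33 replicate 7), Ctla4 had a log2 fold change of 0.84, Cd4 had medians of 0.844 and 1.96 CPM and Foxp3 of 0.290 and 0.645 CPM. Of 6 gamma delta T cell markers, Cd163l1 passed with 1.48 CPM in IL-33 replicate 7 as its maximum (median of the list 0.90, and 0.59 with no call without that tumor), Sox13 reached 55.2 CPM there, and Trdc had medians of 0.250 and 0.757 CPM. Of 7 genes listed for the dendritic cells that carry CD8 alpha, none passed with or without IL-33 replicate 7 (median 0.52 and 0.60). Among these genes, Flt3 and Siglech are not particular to that subset. Flt3 had a log2 fold change of 1.28 (adjusted p = 0.511 with edgeR), Siglech of 1.29, and Xcr1 medians of 0.497 and 0.904 CPM. The log2 fold change was positive for 6 of the 7, and Clec9a went the other way (-0.19, and -0.22 without IL-33 replicate 7).

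The remaining lists served to describe the tumors. Of 12 mast cell markers, Kit passed with 41.2 CPM in IL-33 replicate 7 (median of the list -0.57), and Hdc, which makes histamine, had a log2 fold change of 0.78 with 141 CPM there. With that tumor left out none passed, the median was -0.86, Kit went from 1.19 to 0.15 and Hdc turned to -0.19. None of 6 B cell markers (median 0.19, with Cd79b at 0.83 and Cd79a at 0.52) and none of 7 macrophage markers (median -0.03, with Mrc1 at -0.40 and Csf1r at 0.22) passed, nor did any without IL-33 replicate 7 (medians 0.10 and -0.05). All 10 uterus and oviduct markers passed as higher (median 5.74) and, without IL-33 replicate 7, 0 of 8 tested did. Ovgp1, an oviduct glycoprotein, was at 923 CPM there, and Esr1, Pgr, Hoxa10, Hoxa11, Wnt7a, Pax8, Msx1, Foxj1 and Sprr2f moved with it. Of 8 epithelial markers, Epcam, Cldn7, Cdh1, Krt18 and Muc1 passed (median 2.77), with 98.8 CPM of Epcam in IL-33 replicate 7 and no more than 2.40 CPM elsewhere. Without that tumor none passed as higher and Krt18 passed as lower.

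Among the genes most like the 10 over the 16 tumors, by Pearson r with their mean log2(CPM + 0.5) among 13100 genes with a mean of at least 1 CPM, were Cst7, Ms4a4b, Hrh2, Fpr2, Vav1, BC147527, Klrc1, Ptpn6 and Cxcr6 (r = 0.94 to 0.95). Cst7, an inhibitor of the proteases that mature granzymes, ran from 0.270 to 6.63 CPM. Ms4a4b, a membrane protein of T cells, ran from 0.919 to 26.4 CPM, and Cxcr6, a chemokine receptor of effector and resident T cells, from 0.0707 to 8.92 CPM. Cst7, Ms4a4b and Cxcr6 are only part of the genes named, and which cells carried any of them was not tested. Over the 12 lower tumors these genes had r between 0.78 and 0.84, and none of them stayed among the 10 most like. Over all ranked genes, 3.41% had r above 0.8 over the 16 tumors.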

How the data were processed

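RNA from 16 tumors (8 vehicle, 8 IL-33) was sequenced after poly(T) selection. The authors deposited 1 table of whole-number read counts per gene for each tumor, and the submitters' processing notes name HISAT2, featureCounts and mm10; the strand setting is not given in the sources used here. Counts were tested as deposited with edgeR 4.0.16 (quasi-likelihood, TMM) in R 4.3.3 on genes whose counts summed to 10 or more, with Benjamini-Hochberg adjustment over all of them; DESeq2 1.42.0 and limma 3.58.1 were alternatives. CPM is the count over the total count of the library, and log2 values use CPM + 0.5. Correlations used 100000 permutations, or exact pairings within a group. Group comparisons of 1 value used an exact permutation test. The fit was tested on simulated data. Symbols were matched for 22203 of 22298 genes, and 95 had no unique symbol. Every pair of libraries differed by more than counting noise. The methods give 4 or 5 mice per group for this model, fewer than the 8 tumors per group, and nothing says that each tumor came from a separate mouse, so p values measure the spread between tumors. The 10 genes and all lists were chosen with earlier results of these data known. Genes named are the 10, the 2 of each list with the smallest p, those past an unadjusted p of 0.05, defining markers, and the 10 most like the mean of the 10; others are said to have been chosen after their values were seen. Gene and promoter coordinates are GRCm38. One gene that the rule names is not reported here.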

Additional observations from a re-analysis of the deposited data

Results flagged for a closer look

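In 2 of the 20 sets of 8 levels examined (10 genes in 2 groups), 1 tumor stood far from the rest of its group, where chance gives about 1 in 20 sets. Both were in vehicle replicate 7. For Nkg7, at 26.6 CPM, its gap to the nearest other vehicle tumor was 0.708 of the range of the group. For Ccl5, at 19.9 CPM, the gap was 0.611 of the range on the same scale. Both exceeded Dixon's critical value at the 95% level for 8 samples.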

How the results depend on the processing

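Of the 10 genes, 1 (Ccl5) passed an unadjusted p of 0.05 with limma voom with sample weights, where 966 of all 16817 genes did. With each tumor left out in turn, 0 to 1 of the 10 passed with edgeR. Of these fits, the share over all genes is given only for that without IL-33 replicate 7. The median correlation between the genes was 0.63 as Spearman rho, 0.69 to 0.82 without each tumor in turn, and 0.29 over the 12 tumors other than the 4 high ones, an alternative chosen after seeing the data. That choice used the mean of the same genes, which by itself tends to lower r. The sign of the log2 fold change turned for Gzmk with limma voom (0.22), and for Gzma with the replicate block (-0.020). Leaving out each tumor in turn, it ran from -0.24 to 0.73 for Cd3e, -0.24 to 0.72 for Cd8a, -0.049 to 0.89 for Cd2, -0.037 to 0.36 for Gzma, -0.64 to 0.22 for Gzmk, -0.38 to 0.13 for Prf1 and -0.12 to 0.67 for Nkg7. The differences in log2 ratio between the groups ran from -0.49 to 0.028 for Gzma/Cd3e, -0.22 to 0.089 for Gzmb/Cd3e, -0.12 to 0.18 for Nkg7/Cd3e and -0.27 to 0.11 for Gzma/Gzmb, and Nkg7/Cd3e was 0.035 with a pseudocount of 2. The cause of these changes was not tested. In all, 420 values of single genes or ratios kept their direction and their side of the adjusted threshold and 27 turned; Ccl5 crossed the unadjusted one in the 2 settings of the report. With edgeR's own expression filter Gzmk was not tested and has no value. Equal replicate numbers did not pair the tumors (deviations correlated at -0.32 to 0.35, with 4 of 8 over 0.1), and with the replicate block the median log2 fold change of the 10 genes was 0.06 and no call changed. Depth limits Cd8b1 (1 to 121 reads in a tumor) and Gzmk (3 to 52) most.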
